A study of Homo sapiens with 4 samples.

Results

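HOXB13 peaks were examined at 4 loci that hold 5 genes known as products or tumour markers of the prostate: ACPP, MSMB, PRUNE2 with the long non-coding RNA PCA3 inside it, and AMACR. Peaks belonged to a locus when their summit lay inside the gene or within 50 kb of it, a rule that uses position alone and no measured height. In this way 36 of the 68049 peaks in the GSK2879552 list and 2 of the 3507 peaks in the vehicle list were taken, counted on the placed chromosomes of build hg19 (1 to 22 with X and Y). LNCaP is an established prostate cancer cell line that depends on the androgen receptor. Its cells were grown in RPMI1640 with 5% CSS, and the labels of all 4 samples also give 10% FBS. The cells were labelled as treated with 50 µM GSK2879552, which inhibits LSD1, a histone demethylase, for 4 hours, or as vehicle control. Titles and descriptions alone set the vehicle samples apart, because their treatment text also names the inhibitor. The 4 samples were 2 lanes per treatment, called technical replicates, with 1 peak list for both lanes. No value below therefore has an error between cultures, every number describes 2 libraries and not the treatments, and intervals cover counting error only.

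HOXB13 is a homeobox factor that marks the prostate lineage and shares many sites in prostate cells with the androgen receptor and FOXA1. LSD1 takes methyl groups from histone lysines and works in complexes with transcription factors. ACPP encodes prostatic acid phosphatase and MSMB encodes beta-microseminoprotein, both secreted in quantity by luminal cells into seminal plasma. PCA3 is transcribed from the strand opposite to PRUNE2, within an intron of that gene, and its RNA is measured in urine as a prostate cancer marker. AMACR is a racemase of peroxisomes and mitochondria that acts on branched-chain fatty acids and is stained in prostate biopsies as a tumour marker.

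At the ACPP gene start a GSK2879552 peak covered the first base of the gene, whereas the peaks nearest the start of AMACR stopped short of it. The sequence around both starts is shown for this reason, from the RefSeq table of build GRCh38.p14, in which ACPP has the symbol ACP3. Each window runs from 250 bases before to 50 bases after the start, on the strand of the gene. Capitals mark the letters ATAAA or GTAAA on either strand, the cores of the forms CAATAAA and TCGTAAA in which HOXB13 sites are known.
ACP3, GRCh38.p14 chr3:132317157-132317456, plus strand: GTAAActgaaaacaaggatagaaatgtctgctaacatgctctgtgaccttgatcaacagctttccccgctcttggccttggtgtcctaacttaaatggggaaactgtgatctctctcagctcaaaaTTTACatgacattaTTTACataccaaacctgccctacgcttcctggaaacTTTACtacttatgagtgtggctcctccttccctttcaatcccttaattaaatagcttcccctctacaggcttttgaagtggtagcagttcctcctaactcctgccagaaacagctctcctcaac
AMACR, GRCh38.p14 chr5:34008001-34008300, minus strand: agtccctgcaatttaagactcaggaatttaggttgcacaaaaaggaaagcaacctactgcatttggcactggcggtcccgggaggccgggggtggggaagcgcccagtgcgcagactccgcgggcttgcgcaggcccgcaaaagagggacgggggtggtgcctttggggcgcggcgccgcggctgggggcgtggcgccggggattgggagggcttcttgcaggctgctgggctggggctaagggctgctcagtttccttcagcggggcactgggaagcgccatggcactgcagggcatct
The ACP3 window held GTAAA 4 times, at 250 bases before the start and, on the opposite strand as TTTAC, beginning 124, 110 and 74 bases before it. It held neither of the long forms and no ATAAA. The AMACR window, with a GC content of 65.7% against 43.7% at ACP3, held none of the 4. GTAAA occurred on either strand in 28.1% of all 35116 windows of the table, ATAAA in 34.9%, CAATAAA in 4.00% and TCGTAAA in 0.541%. The shorter words lie within the longer ones, so these shares overlap. They count windows with at least 1 match, and how many windows hold a word 4 or 5 times was not counted. The 2 largely overlapping windows of PCA3 each held ATAAA 5 times, and 1 of the 2 windows of PRUNE2 held it 1 time. TGTTTAC, a forkhead site found in 3.42% of windows, and AGAACA, a single repeat of the androgen receptor site found in 14.8%, were absent from the windows of ACP3, AMACR, PRUNE2 and PCA3. The MSMB window was not analysed here. A match of letters is a description and not a bound site, and it was not checked that the GRCh38.p14 starts are the same bases as the hg19 starts used for the peaks.

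Depth differed between the libraries. The pileup, the number of overlapping extended tags at a summit, and the local background beneath it were solved from the fold enrichment and p-value of each peak. Genome-wide, the background came to 2.79 tags with GSK2879552 and 0.443 with vehicle, a ratio of 6.31, and the lowest pileup in the lists was 10 and 5. The smallest peak width was 139 bp with GSK2879552 and 100 bp with vehicle. Whether tags were extended to different lengths, which would enter the ratio beside depth, was not tested. The longer list, that of GSK2879552, had 19.4 times the peaks of the other. Depth, list length and treatment thus went together and cannot be told apart in the comparison of the lists. Fold enrichment is the authors' value for each peak over its own local background and is compared below only within a list.

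The ACPP locus held 5 GSK2879552 peaks and no vehicle peak. ACPP lies on the plus strand at chr3:132036211-132087146, and with its flanks the window was 151 kb long. The strongest peak lay 11.8 kb before the gene start at chr3:132024263-132024556, with 44 tags of pileup and a fold enrichment of 6.45. A higher fold than 91.1% of all GSK2879552 peaks set it apart from the other 4. The peak over the gene start, at chr3:132036087-132036299, had its summit 46 bp into the gene, and it had the lowest fold of the 5, 3.32, with a pileup of 19 against 17 to 44 over the locus. Only 8.68% of the list had a lower fold. A second peak followed 393 bp further on, at chr3:132036547-132036758, with a fold of 4.01 and a pileup of 23. The start of ACPP therefore carried a pair of close peaks, the first of low fold and the second with a fold above that of 40.1% of the list. Their local background was 1.80 and 1.79 times the genome-wide one. The last 2 members were a peak 38.0 kb before the start with a fold of 4.47 and a pileup of 18, and a peak 29968 bp from the start and inside the gene, at chr3:132066049-132066230, with 3.68 and 17. No GSK2879552 peak was found between that intragenic peak and a point 79.4 kb beyond the gene end. The nearest vehicle peak lay 98.4 kb before the gene start, with a fold of 6.22 and a pileup of 11.

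MSMB had peaks on both sides and none within the gene. The gene lies on the plus strand at chr10:51549553-51562590, and its window of 113 kb held 4 GSK2879552 peaks and no vehicle peak. Before the start lay 3 of them. The strongest was 34.9 kb away at chr10:51514616-51514892, with a fold of 5.94 and a pileup of 24, a fold above that of 87.3% of the list. The other 2 were close to the gene and weak. A peak 4.72 kb before the start, at chr10:51544742-51544884, had a fold of 3.92, and a peak 2.25 kb before it, at chr10:51547274-51547412, had 3.76, and the pileup was 15 at both. The fourth member lay 37.0 kb past the gene start and beyond its end, at chr10:51586478-51586660, with a fold of 4.23 and a pileup of 17. In the RefSeq gene table of GRCh38.p14, NCOA4, a coactivator and ferritin receptor, is a neighbour of MSMB. Local background was even across the 4 peaks, from 1.10 to 1.16 times the genome-wide one.

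The common variant rs10993994, known from association studies of prostate cancer, lies at position 51549496 of chromosome 10, 57 bp before the MSMB start. No peak of either list covered it. The nearest GSK2879552 peak was the one of fold 3.76 above, with its edge 2.08 kb and its summit 2.20 kb away. In the vehicle list the nearest summit was 56.2 kb away. That vehicle peak, with a fold of 5.00 and a pileup of 7, lay just outside the 50 kb limit. The absence of a peak at the variant says that no summit passed the authors' threshold there at these depths. The genotype of the cells at this base was not examined.

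PRUNE2 with PCA3 was the locus with the most HOXB13 peaks. PRUNE2 lies on the minus strand at chr9:79226292-79521003, is 295 kb long and is the longest of the genes. Its 395 kb window held 23 GSK2879552 peaks and 2 vehicle peaks. Of the 23, 18 had their summit inside PRUNE2, 2 lay before its start and 3 after its end. Fold enrichment ran from 3.05 to 10.1 and pileup from 13 to 67. The density was 6.11 peaks per 100 kb inside the gene and 5.00 in the flanks. PCA3 lies within PRUNE2 in the RefSeq table, but no hg19 interval of PCA3 was used, so no peak is assigned to it.

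The highest fold enrichment of the 36 members, 10.1, belonged to a peak beyond the PRUNE2 end, at chr9:79186581-79186925, with a pileup of 41. Its fold was above that of 99.0% of the list. Inside the gene the highest was a peak at chr9:79414329-79414861, 106 kb from the start, with a fold of 8.35, a pileup of 67 and a width of 533 bp. This was the tallest of the 36 by pileup. Next came a peak 286 kb from the start and near the gene end, at chr9:79235248-79235647, with a fold of 7.23 and a pileup of 38. A peak 78.2 kb from the start, at chr9:79442688-79443008, had 7.11 and 41. The fifth by fold, at chr9:79277515-79278063, was the widest of all members at 549 bp, with a fold of 5.26 and a pileup of 31. The summits of all 5 were far from the PRUNE2 start. The peak nearest that start, at chr9:79519434-79519767, lay 1.31 kb inside the gene with a fold of 3.50 and a pileup of 17. The weakest by fold was at chr9:79343131-79343290, with 3.05 and a pileup of 15.

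**Figure D1:**
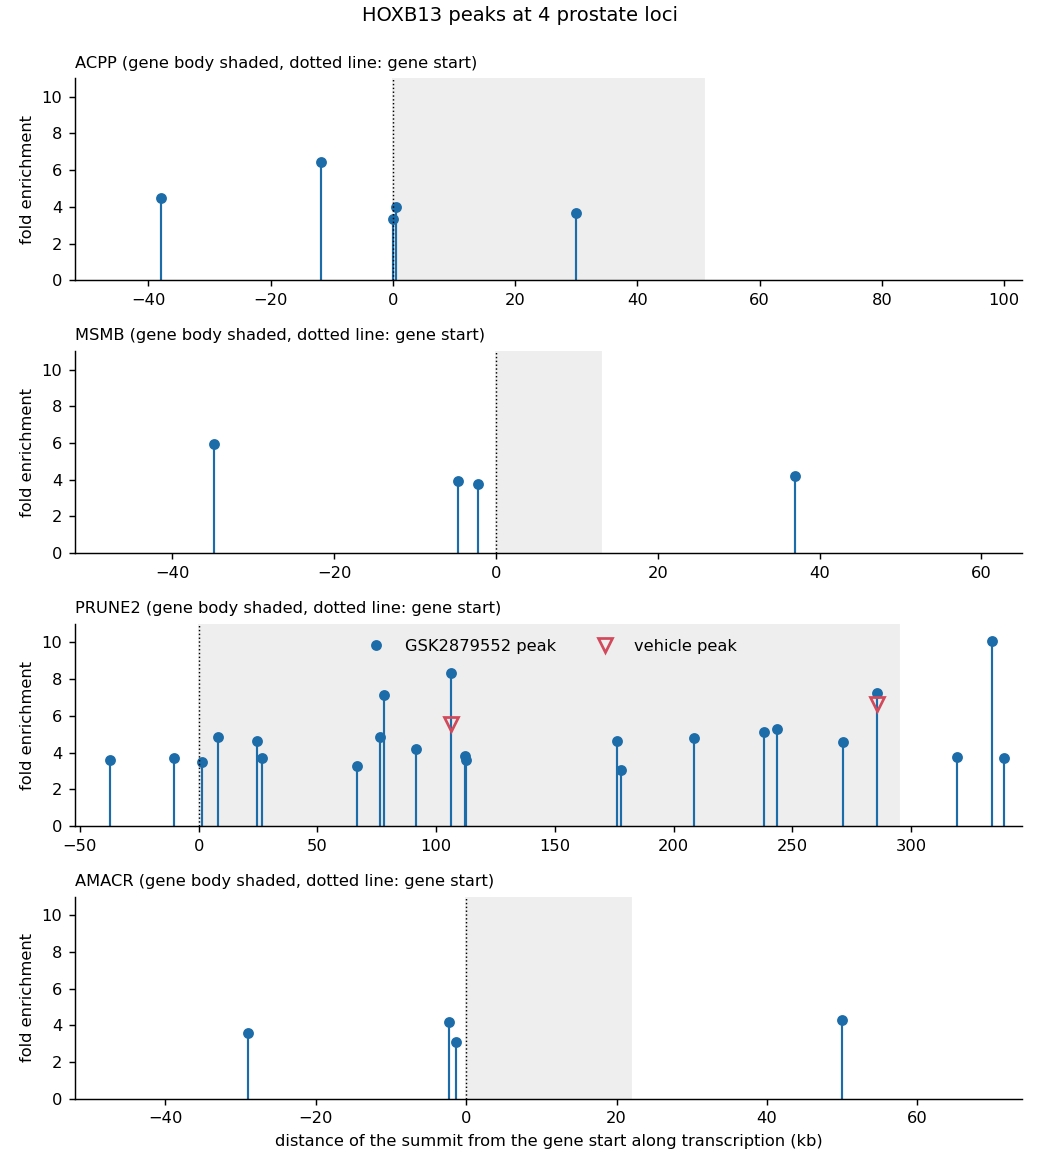
Fold enrichment at the summit (vertical axis, linear) of each HOXB13 peak against its distance from the gene start along the direction of transcription (horizontal axis, kb), for the GSK2879552 list (filled circles on stems) and the vehicle list (open triangles). The pair of peaks at the ACPP start, the empty bodies of MSMB and AMACR and the 18 peaks inside PRUNE2 can be seen, and both vehicle peaks lie on GSK2879552 peaks of PRUNE2.

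Within PRUNE2 the peaks were unevenly spaced. Neighbouring summits of the locus were a median of 13.9 kb apart, against 22.4 kb over chromosome 9 with long peak-free intervals left out. A stretch of 63.3 kb, from 79344943 to 79408228, held no summit, but 82.5% of the gaps on the chromosome were shorter, so its length was not rare. Directly after it, 7 summits fell within 46.0 kb, up to position 79454178, and this run includes the tallest peak. Among all runs of 7 neighbouring summits on chromosome 9, 2.58% were shorter. The run was singled out after the positions were seen, so this rank is a description. Its peaks had a median fold of 4.17 and a median pileup of 24, and the other 16 members had 4.59 and 19. Their local background was 1.60 to 2.56 times the genome-wide value, while at the others it ran from the genome-wide value itself to 1.82 times. The median folds of both sets were close. Close spacing is what the run was picked for. Its median local background was higher, 1.85 against 1.31 times the genome-wide value, but the ranges overlapped. Whether tags of neighbouring peaks or DNA copy number add to that background was not tested.

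AMACR resembled MSMB in having no peak inside the gene. It lies on the minus strand at chr5:33986283-34008220, and its 122 kb window held 4 GSK2879552 peaks and no vehicle peak. Shortly before the start lay 2 of them, 849 bp apart. The nearer, at chr5:34009487-34009777, had its summit 1.40 kb from the start, with a fold of 3.08 and a pileup of 20. The other, at chr5:34010351-34010766, lay 2.25 kb before the start, with a fold of 4.20 and a pileup of 27, the tallest at this locus. Further out, a peak 29.0 kb before the start had 3.57 and 14. Beyond the gene end a peak at chr5:33958193-33958410 had the highest fold of the locus, 4.27, and a pileup of 18. None of the 4 reached a fold of 5. At the 2 peaks close to the start the local background was 2.08 and 2.03 times the genome-wide one, against 1.23 and 1.14 times at the other 2. The nearest vehicle peak was 170 kb from the AMACR start.

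Seen together, the starts of the 4 protein-coding genes had their nearest GSK2879552 summit at 0.046 kb for ACPP, 1.31 kb for PRUNE2, 1.40 kb for AMACR and 2.25 kb for MSMB. Only the peak at ACPP covered the start. In the same order, these 4 peaks nearest a start were low in the list by fold, with 3.32, 3.50, 3.08 and 3.76. The list's first quartile was 3.69, and the peaks at ACPP, PRUNE2 and AMACR lay below it. Their pileups, again in this order, were 19, 17, 20 and 15, against a list median of 18. Local background was 1.80, 1.48, 2.08 and 1.16 times the genome-wide one, against a median of 1.22 over the list. Its part in the low folds was not tested. The peak of highest fold lay elsewhere at each locus, between 11.8 kb (ACPP) and 334 kb (PRUNE2) from the start. By pileup the order differed at AMACR, where the tallest peak was the one 2.25 kb before the start, and at PRUNE2, where it lay 106 kb from the start.

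**Figure D2:**
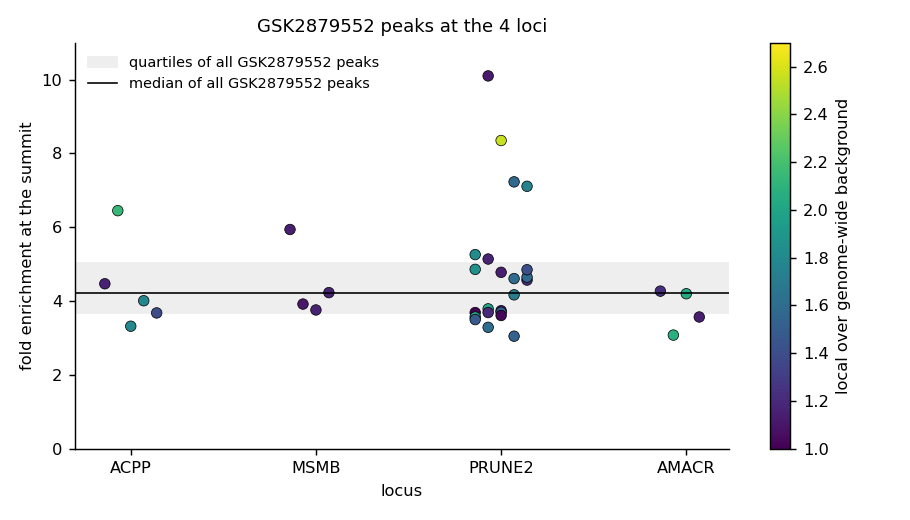
Fold enrichment at the summit (vertical axis) of the 36 GSK2879552 peaks by locus (horizontal axis), each point a peak, coloured by its local background over the genome-wide one, with the median and quartiles of all GSK2879552 peaks as line and band. Most points lie in or near the band, with 4 PRUNE2 peaks above a fold of 7 and the AMACR peaks at 4.27 or below.

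In median strength the members were close to their list. The 36 peaks had a median fold of 4.18, and the whole list had 4.22 with quartiles of 3.69 and 5.02. Above the list's median lay 17 of the 36. A fold of at least 5 was reached by 8 of 36, or 22.2% (exact 95% binomial interval 10.1 to 39.2), against 26.6% of all GSK2879552 peaks. The interval is wide and treats peaks of the same locus as independent, so it cannot show that the shares are equal. By locus the 8 were 1 of 5 at ACPP, 1 of 4 at MSMB, 6 of 23 at PRUNE2 and 0 of 4 at AMACR. The median pileup was 19.5 against 18 and the median width 200 bp against 199 bp. Local background was higher at the members, with a median of 1.48 times the genome-wide one against 1.22 over the list, and it was 1.79 at ACPP, 1.63 at AMACR, 1.52 at PRUNE2 and 1.16 at MSMB. Its part in fold and peak number was not tested.

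Peak number was set against windows of the same length laid end to end along the same chromosome. The windows were not chosen for gene content, and their ranks carry no test. PRUNE2 stood high, with 5.83 peaks per 100 kb against 2.52 in the windows of chromosome 9. Of 307 windows, 303 held fewer than its 23 peaks, a share of 98.7%, and 4 held more, while the median window held 10 and the fullest 33. The other 3 loci lay moderately above the median of their windows, and 27.7% (ACPP), 23.1% (MSMB) and 28.4% (AMACR) of windows held more peaks. The 5 peaks of ACPP, 3.31 per 100 kb against 2.74, exceeded 771 of 1286 windows of chromosome 3 (median 4). At MSMB the 4 peaks, 3.54 per 100 kb against 2.60, exceeded 64.2% of 1166 windows of chromosome 10 (median 3). For AMACR, 4 peaks and 3.28 per 100 kb against 2.72, the share was 57.2% of 1455 windows of chromosome 5 (median 3). The rank of ACPP depended on the flank and on weak peaks. It rose to 93.5% with a flank of 100 kb and was 37.3% when only peaks with a fold of at least 5 were counted. ACPP then had 1 peak, so 37.3% is the share of windows with none, and windows tied with it are left out. AMACR had no peak of that fold.

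**Figure D3:**
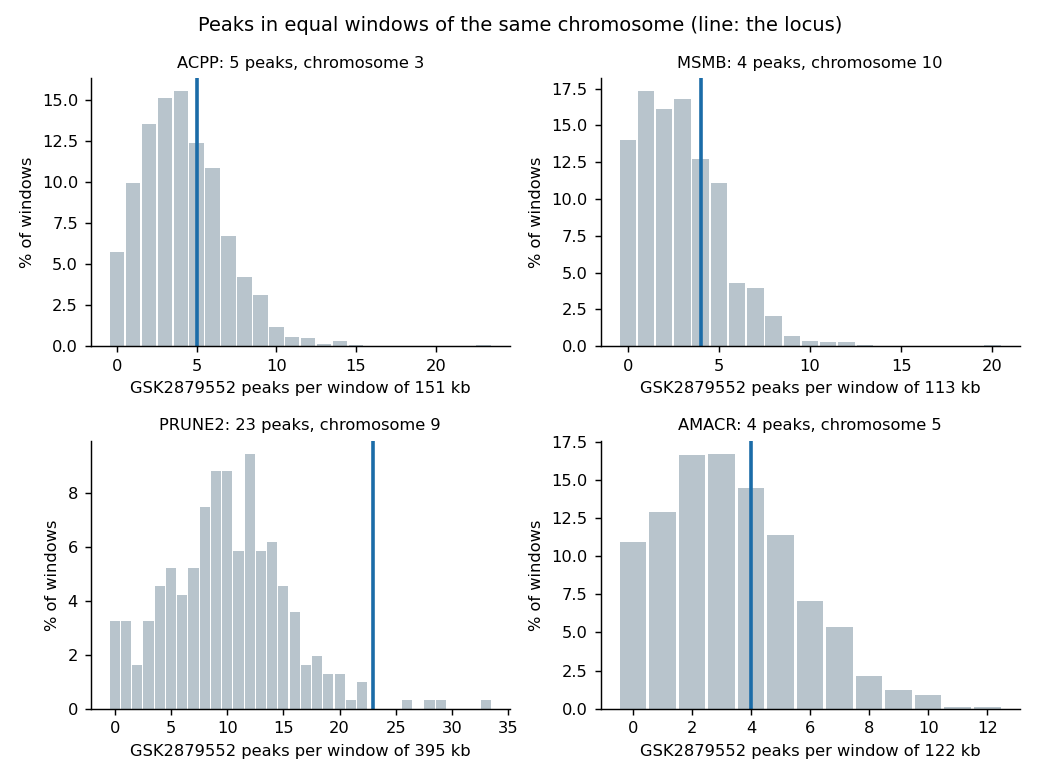
Share of windows (vertical axis, %) by the number of GSK2879552 peaks they hold (horizontal axis), for windows as long as each locus on its own chromosome, with the locus as a vertical line. PRUNE2 with 23 peaks lies in the right tail, and ACPP, MSMB and AMACR with 5, 4 and 4 peaks lie in the body of the distribution.

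The highest fold of each locus was also ranked among its windows. A window with more peaks has more values to take a maximum from, so this rank is not independent of peak number. Windows without a peak counted as lower. The top fold of PRUNE2, 10.1, exceeded the top fold of 88.9% of the windows of chromosome 9. At ACPP (6.45) and MSMB (5.94) the shares were 73.4% and 71.4%. AMACR was low, its top fold of 4.27 exceeding 27.0% of the windows of chromosome 5, where the median window had a top fold of 5.16. The 27.0% includes the 10.9% of windows that held no peak.

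Both vehicle peaks lay inside PRUNE2, each within a GSK2879552 peak. The first, at chr9:79235360-79235461, had a fold of 6.67, with 10 tags over a background of 0.650, and its summit was 11 bp from that of the GSK2879552 peak of fold 7.23 and pileup 38. The second, at chr9:79414547-79414755, had a fold of 5.56, with 10 tags over 0.980, with its summit 33 bp from that of the tallest GSK2879552 member, of fold 8.35 and pileup 67. Relative to the genome-wide background of the own library, the pileup was 22.6 at both sites with vehicle, against 13.6 and 24.0 with GSK2879552. With 10 tags behind each vehicle value, no difference in height between the libraries is read from these 2 sites. Their overlap with the GSK2879552 list, 2 of 2, stands beside 91.2% of all vehicle peaks.

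The peak of highest fold beyond the PRUNE2 end, with 41 tags, had no vehicle peak. Nor had the peak 78.2 kb from the PRUNE2 start, with 41, and the strongest ACPP peak, with 44. Divided by the ratio of the backgrounds, these come to 6.50, 6.50 and 6.98 tags, above the lowest vehicle pileup of 5. They lay in a class, pileups of 40 to under 60, of which 36.0% of all GSK2879552 peaks were overlapped by a vehicle peak, against 0 of the 3 members (exact 95% binomial interval 0 to 70.8%). Over all 5 members that came to at least 5 tags when scaled, 2 were overlapped, against 31.4% of the 7051 such peaks in the list.

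Of the 36 members, 2 were overlapped by a vehicle peak, a share of 5.56% (exact 95% binomial interval 0.680 to 18.7), near the 4.59% over all 68049 GSK2879552 peaks. At pileups under 20 it was 0 of 18 members and 0.579% of the list. At 20 to under 30 it was 0 of 12 and 2.94%, and at 30 to under 40 it was 1 of 2 and 12.1%. The single member at 60 to under 100 was overlapped, as were 72.7% of the list. Divided by the ratio of the backgrounds, the pileup of 31 of the 36 members fell under 5 tags, the lowest vehicle pileup. So did that of 60998 of the 68049 peaks of the list. Of the 3121 list peaks with a vehicle peak, 2216 came to at least 5 tags when scaled and the others did not. Among the 31 members were 4 of 5 at ACPP, 4 of 4 at MSMB, 19 of 23 at PRUNE2 and 4 of 4 at AMACR. By this scaling, a vehicle signal at such a site equal to or below the scaled one would have given no peak. The absence of a vehicle peak there therefore does not show less binding with vehicle. Windows without any vehicle peak were also the usual state: 83.9% of those of chromosome 3, 87.4% of chromosome 10 and 87.0% of chromosome 5 held none. On chromosome 9, 87.9% of the windows held fewer vehicle peaks than the 2 at PRUNE2, and 64.5% held none.

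**Figure D4:**
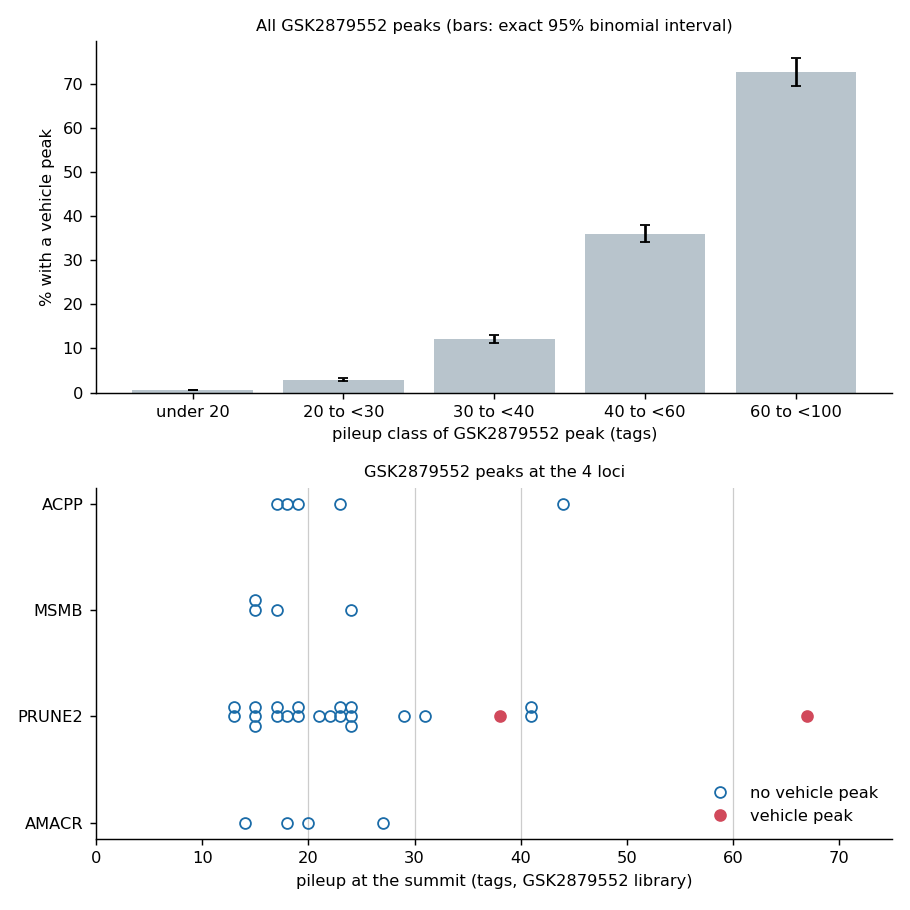
Upper panel: share of all GSK2879552 peaks overlapped by a vehicle peak (vertical axis, %) by class of pileup, with exact 95% binomial intervals; lower panel: pileup in tags of each of the 36 members by locus, filled where a vehicle peak overlapped. The share rises from 0.579% to 72.7%, and 30 of the 36 members lie below a pileup of 30, where none had a vehicle peak.

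The 50 kb limit left out some stronger sites. The nearest GSK2879552 peak beyond the limit on the start side of PRUNE2 lay 104 kb from the gene, with a fold of 10.1 and a pileup of 63 and no vehicle peak. On the start side of MSMB it lay 56.2 kb from the gene, at chr10:51493179-51493599, with a fold of 7.73 and a pileup of 35, and it was overlapped by the vehicle peak described above. At ACPP the nearest peak beyond the limit was 50.2 kb before the gene, with a fold of 3.84 and a pileup of 18, and at AMACR it was 68.8 kb before the start with 5.04 and 33. The outermost members at AMACR lay 29.0 kb before the start and 28.0 kb beyond the gene end, so no member there was at the edge.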

How the data were processed

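HOXB13 binding in LNCaP cells, measured by ChIP-seq, came as 2 deposited peak lists, 1 per treatment and each for 2 lanes. MACS2 2.1.2, SAMtools 0.1.18, BWA 0.7.2 and the build hg19 are named in the submitters' processing notes, without role or order. The sources used here give neither the use of an input control nor the calling options. In 100% of rows the deposited score equalled the −log10 q-value times 10, rounded down. Fold enrichment, a ratio, and −log10 of the p-value and of the q-value at the summit are the authors' deposited values. No q-value exceeded 0.0469 with GSK2879552 or 0.0500 with vehicle.

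Peaks off chromosomes 1 to 22, X and Y were left out (676 and 215). Coordinates count from 1. Gene intervals and the variant position in hg19 came with the choice of loci, and strands are background knowledge. With fold = (k + 1)/(λ + 1) for pileup k and background λ, both were solved using the Poisson tail probability, and a whole k within 0.001 was found for 100% of peaks of both lists. The genome-wide background is the commonest λ. That backgrounds of the libraries compare by tags was assumed. Windows inside or touching peak-free intervals of at least 2.5 Mb, or touching the locus, were left out. Overlap meant at least 1 bp. No test was run, since there is no replicate. The solver, overlap and window routines were tested on simulated data. Peaks printed singly were all members at loci with 5 or fewer, and at PRUNE2 the 5 of highest fold, the nearest to the start, the lowest and those with a vehicle peak. Members, loci and lists were chosen with earlier results of these data known. The prostate secretory and peroxisomal genes listed for comparison were not analysed here, because no hg19 annotation was used. Python 3.11.15, numpy 2.4.6, scipy 1.17.1, pandas 2.3.3 and matplotlib 3.10.9 were used.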

Additional observations from a re-analysis of the deposited data

How the results depend on the processing

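No paired analysis was possible because each treatment came as 1 peak list for both lanes, and for the same reason no replicate could be left out. Of 53 alternatives, 27 left the value within 1.5 times (densities) or within its 95% interval. The 27 include vehicle densities of 0 at ACPP, MSMB and AMACR, which a narrower flank or a stricter q-value could not change. Shifting the windows or keeping those in long peak-free intervals moved no rank beyond its interval. Windows of a chromosome are not replicates, so for the ranks this interval serves only as a yardstick. Of the alternatives below, those for stricter thresholds count fewer peaks and those for flanks other sequence; further causes were not tested. With a flank of 100 kb the density per 100 kb was 5.18 at ACPP in the GSK2879552 list, and 0.399 at ACPP and 0.469 at MSMB in the vehicle list. The share of windows with fewer peaks became 93.5% at ACPP, 72.3% at MSMB, 95.9% at PRUNE2 and 69.0% at AMACR. A flank of 25 kb gave 68.6% at ACPP, 75% at MSMB and 45.0% at AMACR. For a fold of at least 5 the densities were 0.663, 0.885, 1.52 and 0 at ACPP, MSMB, PRUNE2 and AMACR. The shares of windows with fewer peaks were then 37.3%, 49.7%, 92.8% and 0%. The 0% was fixed, because AMACR had no such peak. ACPP and MSMB had 1 such peak each, so their shares are those of windows with none, and ties are left out. For a −log10 q of at least 5 the densities were 1.99, 1.77, 3.55 and 1.64, and 0.253 at PRUNE2 in the vehicle list. The median fold of the 21 members left was then 4.78. The share of members with a vehicle peak was 25% among the 8 of a fold of at least 5. It was 0% with a mutual coverage of at least 50%, the vehicle peaks being 102 and 209 bp wide and their partners 400 and 533 bp. Shares over all GSK2879552 peaks at these settings were not computed, so neither value is read as a trait of the loci. The lowest pileup was 10 tags with GSK2879552 and 5 with vehicle.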
